A study of Caenorhabditis elegans with 24 samples.

Results

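The heat response of *hsf-1(sy441)* was compared with that of N2, the wild-type strain of *C. elegans*, by taking the change from untreated to heat-shocked animals in the mutant, minus the same change in N2, on the log2 scale. The comparison used 12 of the 24 RNA-sequencing libraries of the series, 3 biological replicates each of untreated N2, heat-shocked N2, untreated *hsf-1(sy441)* and heat-shocked *hsf-1(sy441)*. It covered 14424 of the 46934 genes in the table, those that reached 10 counts in 3 or more of these 12 libraries. No measured value entered the choice of the libraries, and the filter on counts entered the choice of genes.

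All animals were grown at 20 °C on HT115 bacteria with the pL4440 plasmid, and about 800 whole animals at day 1 of adulthood were collected for each library. Heat-shocked animals were held at 34 °C for 2 h and recovered at 20 °C for 1 h before collection. By the study's account, *hsf-1(sy441)* makes an HSF-1 that lacks part of its C-terminus and still carries the rest of the protein, so the mutant is not a complete loss of the gene. The other 12 libraries are untreated and heat-shocked animals that express full-length *hsf-1* (*hsf-1FL*) or C-terminally deleted *hsf-1* (*hsf-1CTD*) from the neuronal *rab-3* promoter. They served for the estimates of spread, for a list of heat genes described further on and, in 1 alternative, as part of the response that the mutant was compared with.

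HSF-1, heat-shock factor 1, is the transcription factor that drives the cytosolic heat-shock response (HSR). On heat stress it forms trimers, binds heat-shock elements and raises the transcription of chaperones, the proteins that keep others folded, among them the small heat-shock proteins, Hsp70 and Hsp90. The endoplasmic reticulum has its own unfolded protein response (UPR-ER), with the sensor IRE-1, the factor XBP-1 and the chaperone HSP-4, the worm's BiP. A difference between 2 heat responses can arise from the starting level, from the level reached after heat, or from both. For that reason each gene is given here with 3 values, the difference between untreated *hsf-1(sy441)* and untreated N2 (basal difference), the same between heat-shocked animals (induced difference), and the interaction, which is the induced minus the basal difference. Any 2 of the 3 share libraries, so they are set side by side and were not correlated.

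The 12 libraries held between 12809443 and 18035218 counts. Levels are given in CPM, a gene's reads as a share of its library on a common scale, adjusted between libraries with the TMM method of edgeR. The spread between replicates was uneven, with a biological coefficient of variation of 41.4% in N2 and 54.4% in *hsf-1(sy441)*, against 31.4% in *hsf-1FL* and 24.4% in *hsf-1CTD*. The *hsf-1* transcript cannot check a truncation allele. Its level was 133, 124 and 151 CPM in untreated N2 and 102, 49.9 and 75.2 in untreated *hsf-1(sy441)*, a basal difference of -0.85 ± 0.21 (SE, adjusted P-value of edgeR 0.0258), and its interaction estimate was 0.30 ± 0.29. The summed level of 53 sperm genes was 7.02 to 27.7 CPM in N2 libraries and 42.1 to 2159 CPM in *hsf-1(sy441)* libraries, highest in both libraries of *hsf-1(sy441)* replicate 3. Heat-shocked N2 replicate 1 was the lowest of its group for 21 of 29 chaperones (72.4%) and 33 of 34 proteasome genes (97.1%), against 39.3% of all genes. The part of these libraries in the results was not tested beyond the values without them. In whole animals, fewer cells of a type and less RNA per cell cannot be told apart.

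No gene differed between the 2 heat responses at an adjusted P-value under 0.01 in the quasi-likelihood F-test of edgeR (0 of 14424, 0%), and the lowest adjusted P-value was 0.0307. An unadjusted p under 0.05 was found for 480 genes (3.33%), and limma with voom and sample weights called 0. Same-numbered untreated and heat-shocked libraries deviated together in both genotypes, and with the replicate number within genotype as a block 1 gene passed (0.00693%), the pseudogene *WBGene00012618*, at an adjusted P-value of 0.000752. That fit used all 24 libraries. The same block fitted in edgeR to the 12 libraries alone called 0 genes, with a lowest adjusted P-value of 0.102. The Wald test of DESeq2 with surrogate variables called 23 genes, 11 with a larger and 12 with a smaller response in the mutant. Without surrogate variables it called 5, all with a smaller response in the mutant: *WBGene00012618*, *hsp-70*, *ttll-12*, *T25D10.1* and the collagen *col-88*. The size of the *col-88* estimate depended on the fit, at -22.5 ± 2.93 without surrogate variables and -9.40 ± 1.94 with them. Leaving out heat-shocked N2 replicate 1 made 1 call, *scp-1*, and leaving out heat-shocked N2 replicate 3 made 1 call, *WBGene00012618*. Over all genes the interaction estimate had a median of 0.01 and was negative in 7065 genes (49%).

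The single comparisons within this design gave more calls. Heat raised 85 genes (0.589%) and lowered 19 (0.132%) in N2, and raised 201 (1.39%) and lowered 85 (0.589%) in *hsf-1(sy441)*. With the block these totals of 104 and 286 became 328 and 953. Untreated *hsf-1(sy441)* had 80 genes above untreated N2 (0.555%) and 18 below (0.125%). Heat-shocked *hsf-1(sy441)* had 110 genes above heat-shocked N2 (0.763%) and 34 below (0.236%), or 81 above and 42 below with scaling by library size only. Single libraries moved these numbers widely. The basal total of 98 was 30 without untreated N2 replicate 3 and 471 without heat-shocked *hsf-1(sy441)* replicate 3, and the induced total of 144 was 56 without heat-shocked N2 replicate 3 and 184 without heat-shocked *hsf-1(sy441)* replicate 1.

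The 10 genes with the lowest interaction p among those with a smaller (more negative) response in the mutant were *WBGene00012618*, *hsp-70*, *ttll-12*, *T25D10.1*, *oat-1*, *WBGene00045366*, *ZK1010.8*, *Y94H6A.10*, *Y38F1A.4* and *hsp-16.2*. Heat raised *hsp-70* in both genotypes, and the mutant started from a higher level and ended at a similar one. *ttll-12* and *T25D10.1* started level and ended lower in the mutant. *WBGene00012618* did both.

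*hsp-70* (*WBGene00002026*, I:9320325-9322519, minus strand) encodes the inducible cytosolic Hsp70. Its level was 0.406, 0.397 and 1.17 CPM in untreated N2 and 6.93, 6.48 and 10.3 CPM in untreated *hsf-1(sy441)*. After heat-shock it was 654, 1509 and 845 CPM in N2 and 746, 1073 and 442.5 CPM in *hsf-1(sy441)*. Every untreated mutant library lay above every untreated N2 library, and the heat-shocked groups overlapped. The untreated level was thus 12-fold higher in *hsf-1(sy441)*, a basal difference of 3.58 ± 0.52 (adjusted P-value 0.000634), and the induced difference was -0.41 ± 0.36 (adjusted P-value 0.513). Heat raised it 1513-fold in N2 and 95.1-fold in the mutant, and the interaction estimate was -3.99 ± 0.63 (adjusted P-value 0.0307, 0.0538 with the replicate block). The basal call held when each library was left out in turn but not in a fit of the 12 libraries alone, where its adjusted P-value was 0.0146.

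*WBGene00012618*, a pseudogene of 2246 exonic bases at V:20506503-20509510 on the plus strand, was at 0 counts in the 3 untreated N2 libraries. It was at 0.528, 1.17 and 0.444 CPM in untreated *hsf-1(sy441)*, from 8, 18 and 7 counts. After heat-shock it was at 92.6, 60.6 and 23 CPM in N2 and 9.27, 11 and 5.77 CPM in *hsf-1(sy441)*. Neither the untreated nor the heat-shocked groups overlapped, with the mutant higher before heat and lower after it. Against a floor of 3 counts per library, the level rose at least 289.7-fold in N2 and 12.2-fold in the mutant, and the untreated level was at least 3.52-fold higher in the mutant. The induced difference was -2.76 ± 0.52 (adjusted P-value 0.00688). The interaction estimate was -9.18 ± 1.39 (adjusted P-value 0.0307), a size that depends on how the fit treats counts of 0, and -4.57 against the floor. The induced call was lost without heat-shocked N2 replicate 1 or 2 or any heat-shocked *hsf-1(sy441)* library (adjusted P-values up to 0.0367).

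A pair of same-strand neighbours of this pseudogene also had a larger estimated rise in N2 than in the mutant. The pseudogene and this pair span 9230 bases, from V:20506503 to V:20515732. Other tested genes nearby, *dct-16*, *WBGene00012623*, *Y38H6C.9* and the same-strand *fbxa-150*, were called for heat in neither genotype. Their log2(fold-change) values on heat were -1.01, -0.23, 1.34 and 0.55 in N2 and -1.15, -0.59, 1.32 and 0.13 in the mutant. *Y38H6C.8*, a protein-coding gene at V:20513961-20515732, was at 0, 0 and 0.206 CPM in untreated N2 and 0.132, 0.712 and 0.190 in untreated *hsf-1(sy441)*, which overlapped. It reached 15.4, 28.7 and 19.1 CPM in heat-shocked N2 and 9.14, 12.9 and 6.62 in heat-shocked *hsf-1(sy441)*, where no mutant library reached the lowest N2 library. Its rise was at least 103.9-fold in N2, its induced difference was -1.14 ± 0.50 (adjusted P-value 0.159) and its interaction estimate -3.36 ± 1.00 (unadjusted p = 0.00324 in the edgeR fit, adjusted P-value 1). This estimate was -6.54 without untreated N2 replicate 3, the 1 untreated N2 library with counts, and -2.30 without untreated *hsf-1(sy441)* replicate 2. The pseudogene *WBGene00012620* was listed at 0 counts in untreated N2 and at 3.28, 3.13 and 1.09 CPM in heat-shocked N2, against 0.197, 0.489 and 0.615 in heat-shocked *hsf-1(sy441)*. How reads shared between neighbours were counted is not given in the sources used here.

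*ttll-12* (II:9338997-9341394, plus strand), which encodes a tubulin tyrosine ligase-like protein, was at 82.1, 91.2 and 89.5 CPM in untreated N2 and 81.4, 99.3 and 84.3 CPM in untreated *hsf-1(sy441)*. It reached 496, 641 and 341 CPM in heat-shocked N2 and 145, 153 and 131 CPM in heat-shocked *hsf-1(sy441)*. The untreated groups overlapped, and every heat-shocked N2 library was far above every heat-shocked mutant library. Heat raised it 5.63-fold in N2 (adjusted P-value 1.81e-05), and the fold of 1.62 in the mutant did not pass (adjusted P-value 0.119). The induced difference was -1.78 ± 0.26 (adjusted P-value 0.000696), a call kept without each of the 12 libraries in turn, beside a basal difference of 0.01 ± 0.26. The interaction estimate was -1.79 ± 0.36 (adjusted P-value 0.402).

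The gene 100 bases upstream on the same strand is *scp-1* (II:9334014-9338896), the homologue of SCAP, which escorts the sterol-regulated factor SREBP. It was at 81.3, 88.5 and 102 CPM in untreated N2, at 69.5, 72.8 and 65.6 in untreated *hsf-1(sy441)* and at 86.9, 75.7 and 77.3 in heat-shocked *hsf-1(sy441)*. Heat-shocked N2 had 108 CPM in replicate 1 and 307 and 305 in the others, all above every mutant library. The induced difference was -1.59 ± 0.24 (adjusted P-value 0.000922, kept without each library in turn), and the interaction estimate of -1.20 ± 0.33 became -1.55 ± 0.16 without heat-shocked N2 replicate 1 (adjusted P-value 0.000119). The induced call was lost in an edgeR fit of the 12 libraries alone (adjusted P-value 0.0532).

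*T25D10.1* (II:6403401-6405040) followed the pattern of *ttll-12* at a lower level. It was at 3.05, 2.71 and 2.82 CPM in untreated N2, at 4.09, 1.42 and 4.75 in untreated *hsf-1(sy441)* and at 4.27, 4.89 and 5.31 in heat-shocked *hsf-1(sy441)*. Only heat-shocked N2 stood apart, with 20.2, 36.7 and 19.5 CPM. The induced difference was -2.40 ± 0.41 (adjusted P-value 0.00222), lost without heat-shocked N2 replicate 2 (0.0159) or heat-shocked *hsf-1(sy441)* replicate 2 (0.0145). The interaction estimate was -2.66 ± 0.57 (adjusted P-value 0.556). The pseudogene *WBGene00045366* (V:18720589-18723771) rose in both genotypes, from 3.85 to 5.16 CPM in untreated N2 to 35.1, 56.3 and 30.4, and from 4.50 to 5.94 CPM to 17.3, 22.1 and 14.2 in the mutant. Its induced difference of -1.18 ± 0.23 (adjusted P-value 0.00720) was lost without heat-shocked N2 replicate 2, untreated N2 replicate 2 or any heat-shocked mutant library (up to 0.0536).

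*oat-1*, which encodes an organic anion transporter, was the one gene of these 10 that heat lowered in the mutant. It was at 5.28, 9.2 and 6.74 CPM in untreated N2 and 21.1, 20.6 and 15.4 in untreated *hsf-1(sy441)*, with no overlap, and the groups overlapped after heat at 3.99, 2.01 and 4.55 against 1.91, 1.22 and 3.0. Its log2(fold-change) on heat was -1.0 in N2 (adjusted P-value 0.186) and -3.21 in the mutant (7.50e-05), and the basal difference of 1.43 ± 0.36 did not pass (0.0285). Of the other genes, *Y94H6A.10* was at 573, 760.2 and 234.5 CPM in heat-shocked N2 and 153, 158 and 81.4 in heat-shocked *hsf-1(sy441)*, with an induced difference of -2.0 ± 0.48 (adjusted P-value 0.0239). *ZK1010.8* rested on heat-shocked N2 libraries of 4.44, 41 and 18 CPM against 0.615 to 1.38 in the mutant, and its induced call (adjusted P-value 0.00196) was lost without heat-shocked N2 replicate 2 or heat-shocked *hsf-1(sy441)* replicate 2 or 3 (up to 0.0145).

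**Figure D1:**
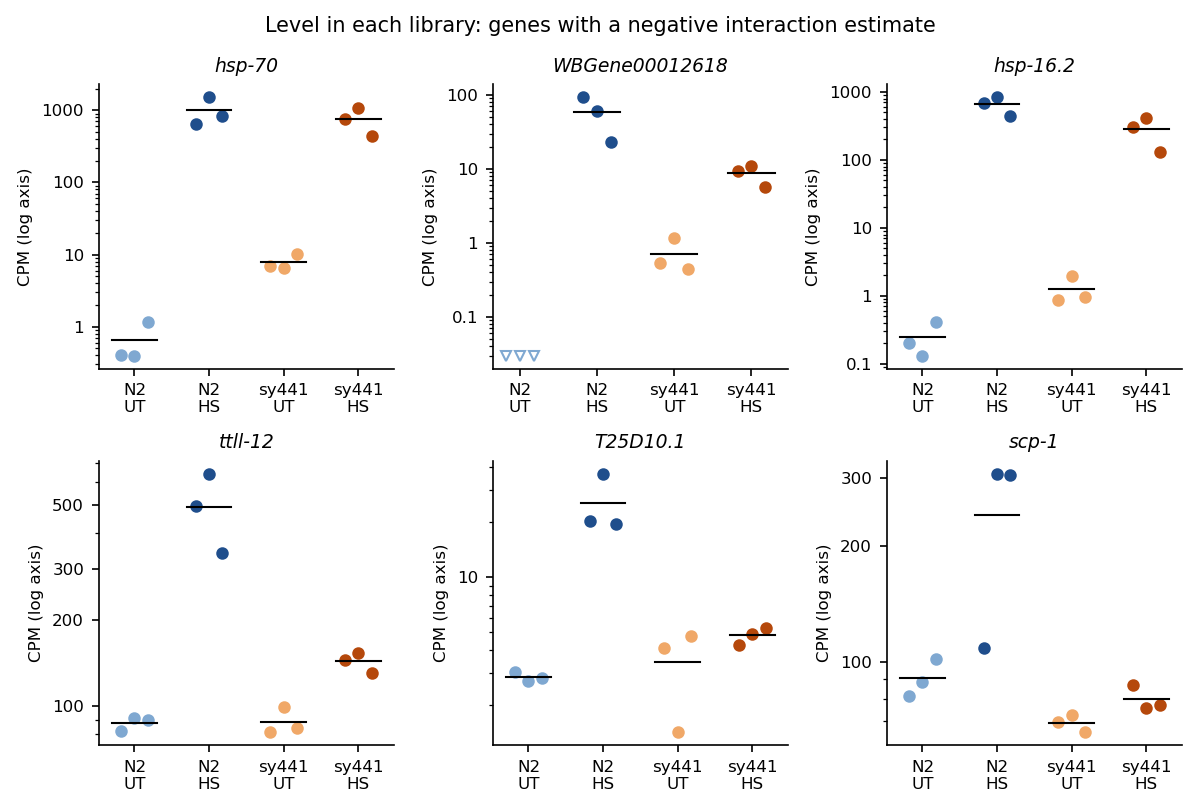
Level in each of the 12 libraries, in CPM on a log axis, of 6 genes with a negative interaction estimate: *hsp-70*, *WBGene00012618*, *hsp-16.2*, *ttll-12*, *T25D10.1* and *scp-1*. Points are replicates, open triangles are libraries with 0 counts and black lines are group means. For *hsp-70* the untreated groups are apart and the heat-shocked groups overlap, while for *ttll-12* and *T25D10.1* the untreated groups overlap and heat-shocked *hsf-1(sy441)* lies below heat-shocked N2.

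The cytosolic chaperones, the best known targets of HSF-1, were taken as a list of 33 genes, of which 29 were tested. The other 4, the near-identical *hsp-16.1* and *hsp-16.48* copies, had at most 3 counts in any library. Heat raised 5 of the 29 in N2 and 5 in *hsf-1(sy441)*, against 0.589% and 1.39% of all genes (10 and 7 members with the replicate block). These 2 numbers depended on the tool, at 11 and 6 in DESeq2 and 13 and 3 in voom. With surrogate variables they were 14 and 8 in DESeq2 and 10 and 7 in edgeR, and with only the 12 libraries 3 and 3. None passed for the interaction in edgeR, 1 did in DESeq2 (*hsp-70*) and 0 in voom, 3 had an unadjusted p under 0.05 (10.3%), and the estimate was negative in 22 (75.9%) with a median of -0.26, against 49% and 0.01 over all genes. This median was -0.12, with 18 negative, without heat-shocked N2 replicate 2, -0.14 without both libraries of N2 replicate 1, -0.16 over the 22 members with 10 counts in all 12 libraries, and -0.09 and -0.06 with surrogate variables in DESeq2 and edgeR. In 19 of the 29 (65.5%, against 36.4% of all genes) the mutant estimate was lower both before and after heat, with median basal and induced differences of -0.29 and -0.48. This order was not particular to chaperones. It was found for 91.2% of listed proteasome genes, 83.3% of oocyte and germline genes and 69.6% of autophagy genes, and for 32.4% of the UPR-ER genes.

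Called for the basal difference were 2 members, *hsp-70* and *hsp-43*, both higher in the mutant (0.555% of all genes). Called for the induced difference were 4, *hsp-43* higher (0.763%) and *hsp-90*, *sti-1* and *dnj-13* lower (0.236%). The induced number was 0 without heat-shocked *hsf-1(sy441)* replicate 2, 1 without heat-shocked N2 replicate 2, 2 without heat-shocked N2 replicate 3 and 6 without heat-shocked N2 replicate 1. It was 9, all lower, without both libraries of N2 replicate 1, and 3 without both of *hsf-1(sy441)* replicate 3. Other fits gave 7 calls in DESeq2 (6 lower), 16 in voom (15 lower), 12 and 9 with surrogate variables in DESeq2 and edgeR (11 and 8 lower) and 0 with only the 12 libraries. With the sperm gene level as a covariate 1 remained, *hsp-43*, and none was called lower.

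The small heat-shock genes *hsp-16.2* (V:1804334-1804957) and *hsp-16.41* (V:1805178-1805875), which lie 220 bases apart on opposite strands, rose from near 0 in both genotypes. *hsp-16.2* was at 0.203, 0.132 and 0.413 CPM in untreated N2, from 3, 2 and 6 counts, and at 0.858, 1.94 and 0.951 CPM in untreated *hsf-1(sy441)*. It reached 695, 831 and 439 CPM in heat-shocked N2 and 307, 412 and 129 in heat-shocked *hsf-1(sy441)*. The groups did not overlap before heat, where the mutant was higher, nor after it, where the mutant was lower. Neither the basal difference of 2.30 ± 0.81 (adjusted P-value 0.0719), the induced difference of -1.21 ± 0.40 (0.0686) nor the interaction estimate of -3.51 ± 0.90 (0.986) passed. *hsp-16.41* was at 0.609, 0 and 0.413 CPM in untreated N2 and 1.19, 1.75 and 0.951 in untreated *hsf-1(sy441)*, and its interaction estimate was -3.0 ± 0.93. After heat-shock its groups overlapped in 1 library, at 1033, 1051 and 613 CPM in N2 and 460, 625 and 183 in the mutant.

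The Hsp90 gene *hsp-90*, long known as *daf-21*, had the highest level of the genes with a lower induced level. Untreated N2 had 2304, 3796 and 3676 CPM and untreated *hsf-1(sy441)* 2082, 2467 and 1952. Heat-shocked N2 had 5454, 7358 and 5709 CPM and heat-shocked *hsf-1(sy441)* 2795, 2847 and 2720. The heat-shocked mutant libraries lay close together and below the lowest heat-shocked N2 library. The induced difference was -1.15 ± 0.19 (adjusted P-value 0.00220), the basal difference -0.59 ± 0.19 (0.0543) and the interaction estimate -0.56 ± 0.27. The induced call was lost without heat-shocked N2 replicate 2 (0.0169) or heat-shocked *hsf-1(sy441)* replicate 2 (0.0132).

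A pair of proteins that work with these chaperones had the same order of levels. *sti-1*, the HOP homologue that links Hsp70 and Hsp90, was at 178, 311 and 242 CPM in heat-shocked N2 and 115.4, 107 and 114 in heat-shocked *hsf-1(sy441)*, an induced difference of -1.12 ± 0.19 (adjusted P-value 0.00204). *dnj-13*, an Hsp40 that delivers substrates to Hsp70, was at 228, 495 and 491 CPM against 210, 197 and 166, an induced difference of -1.08 ± 0.19 (0.00474). In both genes replicate 1 of heat-shocked N2 was the lowest of its group and still above every heat-shocked mutant library. The *sti-1* call was lost without heat-shocked N2 replicate 2 or heat-shocked *hsf-1(sy441)* replicate 2 (up to 0.0163), and the *dnj-13* call without replicate 2 or 3 of either heat-shocked group (up to 0.0338). *unc-45*, the myosin chaperone, was on a separate list of 10 Hsp90 co-chaperones and was its only call. It was at 136, 118 and 128 CPM against 94.7, 93.5 and 97.2, an induced difference of -0.42 ± 0.07 (0.00331), lost without heat-shocked N2 replicate 1 or 3 or any heat-shocked mutant library (up to 0.0189).

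*hsp-43*, a small heat-shock protein, was the member with the opposite order. It was at 39.4, 73.0 and 47.9 CPM in untreated N2 and 195, 132 and 113 in untreated *hsf-1(sy441)*, and at 67.5, 102 and 63.9 in heat-shocked N2 and 245, 202 and 138 in heat-shocked *hsf-1(sy441)*. The mutant lay above N2 in every library before and after heat, so the 2 differences were alike, at 1.45 ± 0.27 (adjusted P-value 0.00637) and 1.33 ± 0.27 (0.00872), and the interaction estimate was -0.13 ± 0.37. Both calls were fragile, the basal one lost without untreated N2 replicate 1 or 3 or untreated *hsf-1(sy441)* replicate 1 or 2 (up to 0.0506), the induced one without 6 of the 12 libraries in turn (up to 0.0563).

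Of the Hsp70 family, the inducible pair *F44E5.4* and *F44E5.5*, adjacent and nearly identical so that their reads may be shared, had interaction estimates of -2.20 ± 1.82 and -4.42 ± 2.19. The constitutive Hsc70 gene *hsp-1* had -0.30 ± 0.26 and the nucleotide exchange factor gene *hsp-110* -0.43 ± 0.32. *unc-23*, a BAG-domain co-chaperone, had -1.56 ± 0.79 and the small heat-shock gene *hsp-17* had -1.70 ± 0.94. The 8 subunits of the CCT chaperonin, *cct-1* to *cct-8*, showed the lower level without a difference in response, with basal differences of -0.57 to -0.20, induced differences of -0.56 to -0.24 and interaction estimates of -0.11 to 0.11, none of them called.

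**Figure D2:**
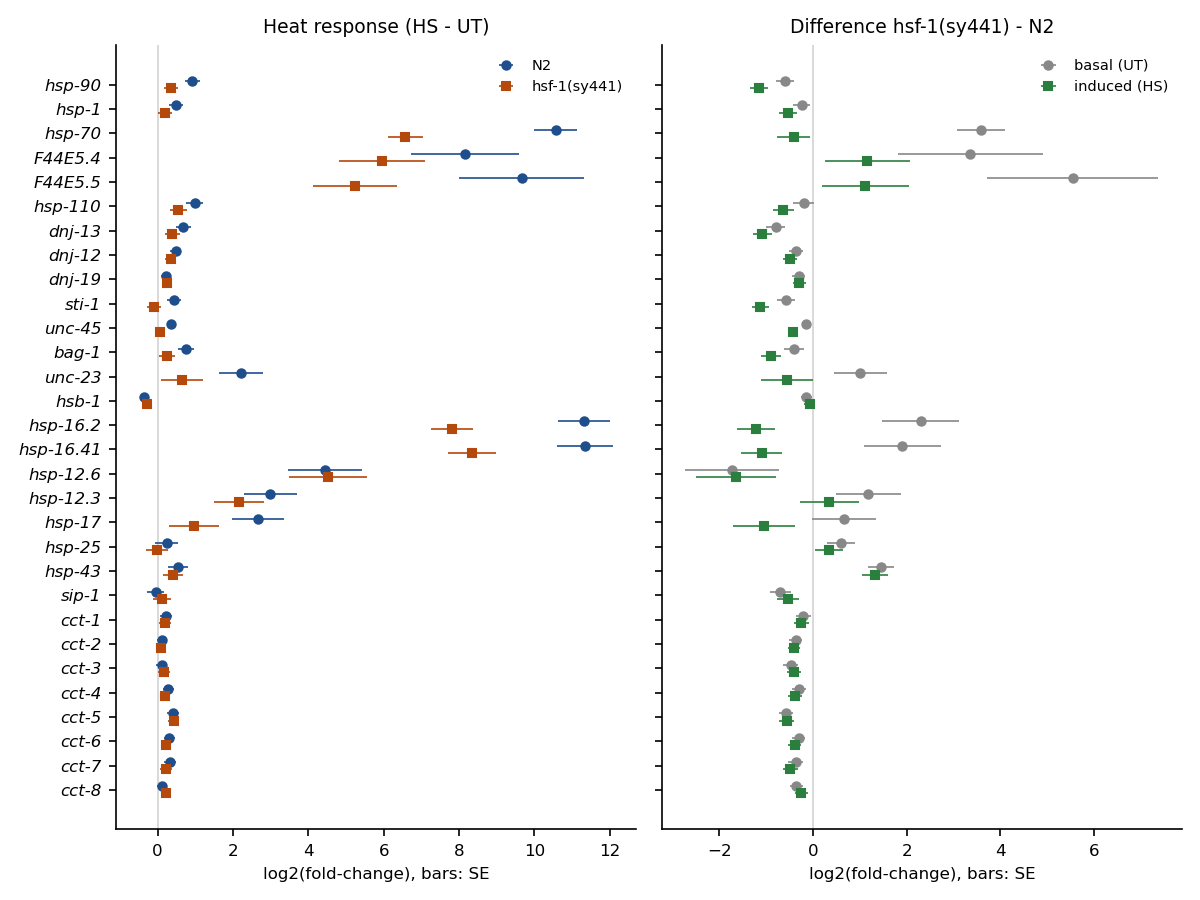
Left, the log2(fold-change) on heat in N2 and in *hsf-1(sy441)* for the 29 tested cytosolic chaperones and *unc-45*. Right, the basal and induced differences (*hsf-1(sy441)* minus N2, log2) of the same genes, and bars are standard errors of the edgeR fit. For *hsp-70* and *hsp-16.2* the basal point lies to the right of 0 and the induced point to the left, while for *hsp-90*, *sti-1* and *dnj-13* both lie to the left.

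The genes with the lowest interaction p among those with a larger response in the mutant were *srw-86*, *M01H9.3*, *snx-27*, *argn-1*, *nhl-2*, *nhr-49*, *Y48C3A.5*, *mml-1*, *F27D9.13* and *E02H9.3*. None passed for the interaction in edgeR, where their lowest adjusted P-value was 0.757, and neither DESeq2 without surrogate variables nor voom called any. DESeq2 with surrogate variables called *M01H9.3* (log2 estimate 1.18, adjusted P-value 0.000190). None of the 10 is on the list of chaperones.

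*M01H9.3* (IV:4468500-4477059) was at 176, 117 and 138 CPM in untreated N2 and 96.7, 119 and 87.8 in untreated *hsf-1(sy441)*. After heat-shock it was at 310, 207 and 171 CPM in N2 and 316, 385 and 376 in *hsf-1(sy441)*, where the lowest mutant library was above the highest N2 library. Heat raised it 3.55-fold in the mutant (adjusted P-value 2.24e-05), its log2(fold-change) in N2 was 0.67 (0.0754), and the interaction estimate was 1.15 ± 0.27. *argn-1*, an arginase gene, was at 35.8 to 65.4 CPM in untreated N2, at 61.9, 62.8 and 45.5 in heat-shocked N2, at 40.3 to 46.6 in untreated *hsf-1(sy441)* and at 92.7, 121 and 131 in heat-shocked *hsf-1(sy441)*. Its induced difference was 1.02 ± 0.20 (0.00795) beside a basal difference of -0.08 ± 0.20, and the induced call was lost without 7 of the 12 libraries in turn (up to 0.0539).

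*E02H9.3* (III:2459042-2465085) had the steadiest call of these genes when single libraries were left out. It was at 24.9, 27.3 and 28 CPM in untreated N2, 26.3, 32.8 and 30.5 in heat-shocked N2, 40.8, 22.7 and 42.7 in untreated *hsf-1(sy441)* and 75.5, 100.1 and 59.1 in heat-shocked *hsf-1(sy441)*. The lowest heat-shocked mutant library was above every other library of the comparison that was not a heat-shocked mutant one. The induced difference was 1.39 ± 0.20 (adjusted P-value 0.000696, kept without each library in turn) and the interaction estimate 0.98 ± 0.28. The induced call was lost in an edgeR fit of the 12 libraries alone (adjusted P-value 0.0483).

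A pair of regulators had small estimates of opposite sign in the 2 genotypes. *nhl-2*, which encodes an NHL-domain cofactor of microRNAs, was at 373, 359 and 386 CPM in untreated and 350.1, 342 and 347 in heat-shocked N2, and at 315, 268 and 275 in untreated and 381, 388 and 381 in heat-shocked *hsf-1(sy441)*. *mml-1*, a Myc and Mondo-like transcription factor, was at 48.8, 41.1 and 40.02 against 39.2, 36.7 and 39.9995 CPM in N2, and at 30.1, 24.7 and 26.7 against 38, 42.1 and 54.5 CPM in *hsf-1(sy441)*. In both genes every heat-shocked library was below every untreated one in N2, for *mml-1* by a margin that is lost in rounding, and above every untreated one in the mutant. The share of all genes with this order is not given here. The interaction estimates were 0.53 ± 0.14 and 0.89 ± 0.25, with adjusted P-values of 1 for both, and neither heat response was called in either genotype. *nhr-49*, a nuclear receptor of fat metabolism, had an interaction estimate of 0.48 ± 0.13, with a log2(fold-change) on heat of 0.47 in the mutant (adjusted P-value 0.00471) and 0.00 in N2.

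At low levels, the chemoreceptor gene *srw-86* was at 0, 0 and 0.0634 CPM in untreated *hsf-1(sy441)* and 1.78, 2.36 and 2.00 CPM after heat, a rise of at least 10.5-fold over a floor of 3 counts per library. It was at 1.02, 0.132 and 0.138 CPM in untreated and 0.909, 0.417 and 0.460 in heat-shocked N2. *Y48C3A.5* rested mostly on heat-shocked *hsf-1(sy441)* replicate 3, at 44.6 CPM against 5.72 and 7.99 in replicates 1 and 2.

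**Figure D3:**
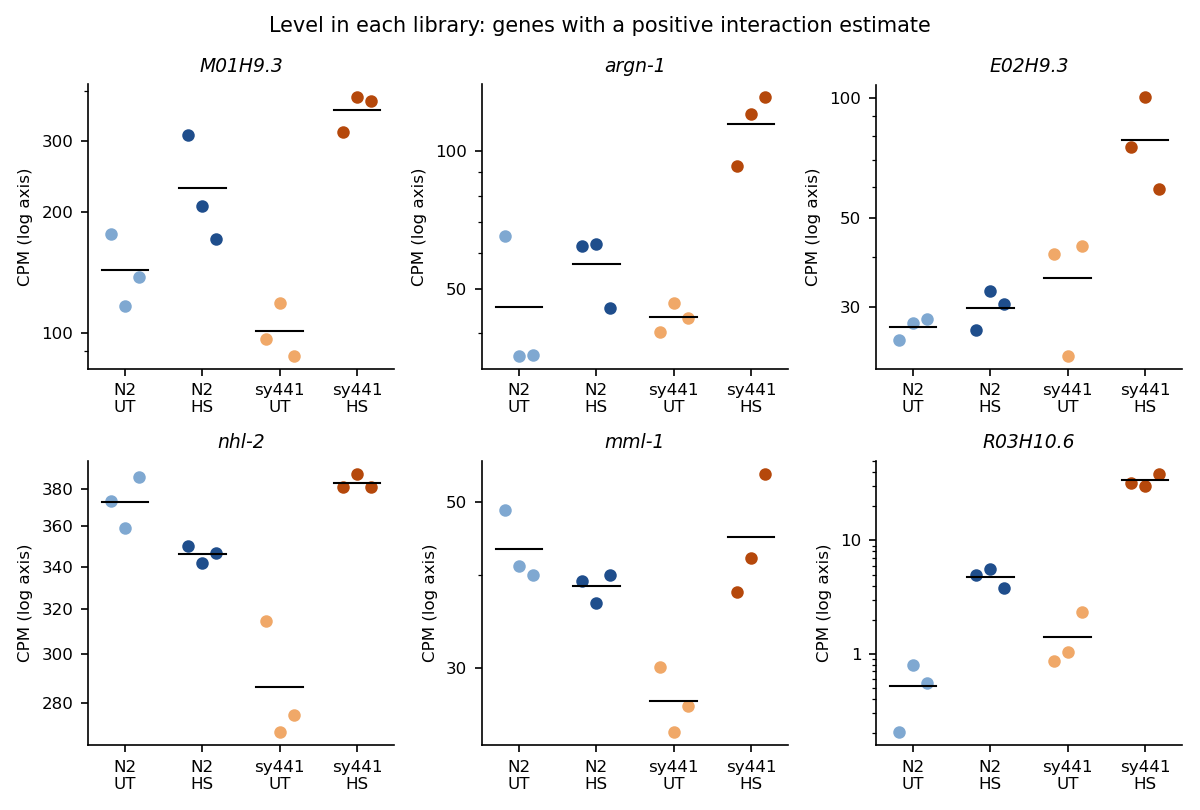
Level in each of the 12 libraries, in CPM on a log axis, of 6 genes with a positive interaction estimate: *M01H9.3*, *argn-1*, *E02H9.3*, *nhl-2*, *mml-1* and *R03H10.6*. Points are replicates and black lines are group means. Heat-shocked *hsf-1(sy441)* lies above heat-shocked N2 for *M01H9.3*, *argn-1*, *E02H9.3*, *nhl-2* and *R03H10.6*, and for *mml-1* the heat-shocked groups overlap.

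To compare the 2 responses over heat genes that neither of them chose, genes called in the same direction on heat in both *hsf-1FL* and *hsf-1CTD* were taken, 62 raised and 36 lowered. Their libraries enter neither response, but the members had to pass the filter on counts in the 12 libraries compared. A gene that heat changed in *hsf-1(sy441)* alone could not be on the list. Whether the choice favours the response of N2 was not tested. The 62 raised genes had a median log2(fold-change) of 3.39 in N2 and 2.87 in *hsf-1(sy441)*. Their interaction estimate had a median of -0.88 and was negative in 47 (75.8%), against 0.01 and 49% over all genes. An unadjusted p under 0.05 was found for 24 (38.7%, against 3.33% of all genes), 23 of them negative. In edgeR none was called for the interaction, while DESeq2 called 4, *WBGene00012618*, *ttll-12*, *T25D10.1* and *hsp-70*, or 7 with surrogate variables, all with a smaller response in the mutant, and voom called 0. Heat raised 49 of the 62 in N2 and 33 in the mutant (0.589% and 1.39% of all genes), 31 of them in both, 18 called in N2 alone and 2 in the mutant alone. Of the 20 called in a single genotype, the difference itself was called for 0 in edgeR and for *ttll-12* and *T25D10.1* in DESeq2.

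In replicate pairs 1 to 3, the median response of the 62 genes was 2.77, 3.55 and 2.81 in N2 and 2.27, 2.28 and 2.12 in *hsf-1(sy441)*, so that the 6 values did not overlap. These values come from single pairs of libraries and not from the edgeR fit. They are thus not on the scale of its medians of 3.39 and 2.87. The median interaction was -1.12 to -0.63 when single libraries were left out. The number raised in N2 was 25 without untreated N2 replicate 3, 26 without untreated N2 replicate 2 and 53 without heat-shocked *hsf-1(sy441)* replicate 3, and the number raised in the mutant was 22 without untreated *hsf-1(sy441)* replicate 3. An untreated group with at most 3 counts in each library was found for 16 of the 62, and the median with these genes at their floor was -0.94. For the other 46 it was -0.62, with medians of 2.71 in N2 and 1.45 in the mutant. Over the 34 members with 10 counts in all 12 libraries the median interaction was -0.48, negative in 25. The size of the median depended on how many genes were taken, since a list of 178 genes at an adjusted P-value under 0.05 gave -0.23, negative in 113 (63.5%).

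Across the 62 genes the 2 responses had a Pearson r of 0.806 and a Spearman rho of 0.852, given as a description across genes, which are not independent replicates. Negative estimates were also found for *gst-36*, a glutathione S-transferase gene, at 90.9, 156 and 60.3 CPM in heat-shocked N2 and 41.7, 56.5 and 40.8 in heat-shocked *hsf-1(sy441)*, with an interaction estimate of -1.91 ± 0.51. *lact-4*, which encodes a beta-lactamase-domain protein, was at 51.2, 39.6 and 20.0 CPM in heat-shocked N2 and 7.82, 6.52 and 13.1 in the mutant, an induced difference of -2.01 ± 0.41 (adjusted P-value 0.00856) that was lost without 6 of the 12 libraries in turn (up to 0.0334). *W03F9.1* was at 152, 444 and 312 CPM against 107, 114 and 121, an induced difference of -1.41 ± 0.23 (0.00157, and 0.0103 without heat-shocked *hsf-1(sy441)* replicate 2).

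Other raised genes responded alike. The RNA subunit of RNase P, *rpr-1*, went from at most 0.0677 CPM in every untreated library to 46.3, 31.2 and 9.27 CPM in N2 and 32.6, 41.4 and 18.7 in *hsf-1(sy441)*. The mitochondrial ribosomal RNA *WBGene00014454* went from 27.5 to 43.4 CPM to 1225, 1731 and 1821 in N2, and from 45.2 to 68.2 CPM to 1370, 1684 and 3621 in the mutant. *sqst-1*, the p62 homologue that delivers cargo to autophagosomes, had an interaction estimate of 0.05 ± 0.53. The libraries were made from polyadenylated RNA, so the level of such noncoding RNA need not be that of the whole transcript pool.

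A single raised gene had a positive estimate with an unadjusted p under 0.05, *F59C12.4*, at 17.4, 42.4 and 32.6 CPM in heat-shocked N2 and 78.6, 95.3 and 107 in heat-shocked *hsf-1(sy441)*, an interaction estimate of 1.28 ± 0.53. *R03H10.6* was the one raised gene called higher in the heat-shocked mutant, at 4.95, 5.56 and 3.80 CPM in N2 and 32.3, 30.6 and 38.7 in *hsf-1(sy441)*, an induced difference of 2.83 ± 0.47 (adjusted P-value 0.00183) that was lost without heat-shocked N2 replicate 2 (0.0104) or 3 (0.0166).

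The 36 lowered genes had median responses of -1.71 in N2 and -1.74 in *hsf-1(sy441)*, with a median interaction of -0.11 and a negative estimate in 22 (61.1%). The sign of this median rested on single libraries. It was -0.46, with 30 negative, without heat-shocked *hsf-1(sy441)* replicate 3, the library with the highest sperm gene level, where the median response of the mutant was -2.06. It was 0.09, with 15 negative, without heat-shocked N2 replicate 1, and 0.04, 0.01 and 0.01 without heat-shocked *hsf-1(sy441)* replicate 1 or 2 or untreated *hsf-1(sy441)* replicate 3. Heat lowered 13 of them in N2 and 21 in the mutant (0.132% and 0.589% of all genes), 8 in both. The number in N2 was 2 without heat-shocked N2 replicate 2 and 24 without heat-shocked *hsf-1(sy441)* replicate 3, and that in the mutant was 7 without any of untreated *hsf-1(sy441)* replicate 3 or heat-shocked *hsf-1(sy441)* replicate 1 or 2. *sago-1*, an Argonaute of the secondary small RNA pathway, was at 29.4, 28.2 and 36.1 CPM in heat-shocked N2 and 19.4, 22.7 and 23 in heat-shocked *hsf-1(sy441)*, from overlapping untreated levels of 47.5 to 63.5 CPM, and its interaction estimate was -0.67 ± 0.22. *abt-4*, an ABC transporter gene, went the other way, at 38.5, 21.4 and 28.4 CPM in heat-shocked N2 and 42.7, 41.6 and 48.5 in the mutant, with an interaction estimate of 0.75 ± 0.26.

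**Figure D4:**
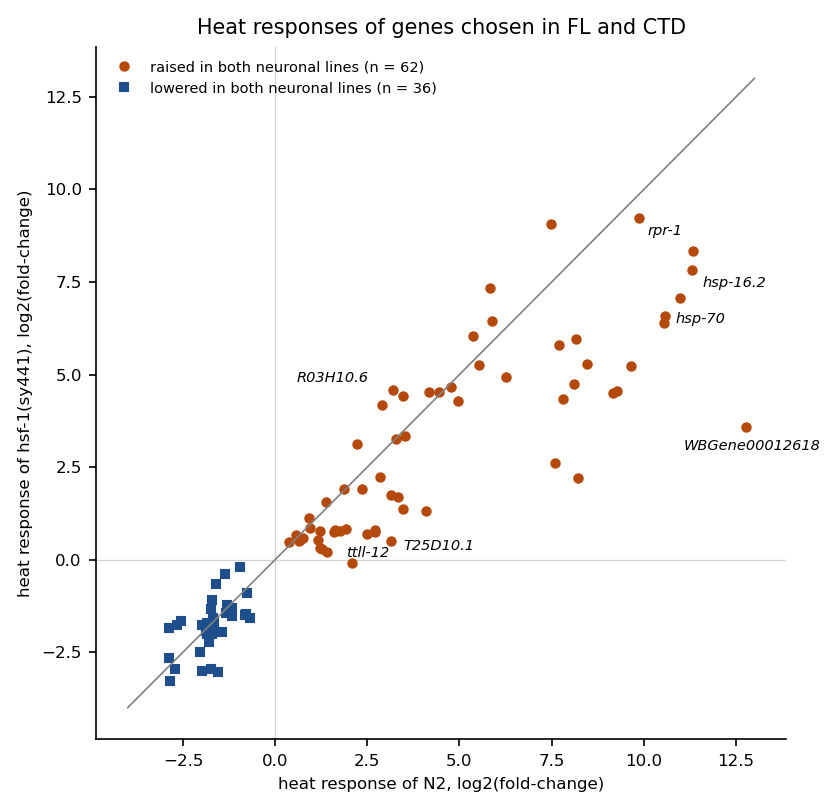
The log2(fold-change) on heat in *hsf-1(sy441)* against that in N2 for the 62 raised and 36 lowered genes called in both neuronal *hsf-1* lines, 1 point a gene. The gray line marks equal responses. Of the raised genes 47 lie below the line, among them *hsp-70* and *hsp-16.2*.

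The interaction was then divided by where the genotypes differed. At an adjusted P-value under 0.01, 35 genes differed in basal level only, 81 in induced level only and 63 in both with the same sign. No gene differed in both with opposite signs, and 14245 were called in neither. A call in one and not in the other does not show that the 2 differ, since the interaction itself was called for none of these genes in edgeR. With the replicate block over all 24 libraries it was called for 1 of the 81, *WBGene00012618*. DESeq2 called it for 1 of the 35, *hsp-70*, and for 3 of the 81, *WBGene00012618*, *ttll-12* and *T25D10.1*, and voom for 0. It had an unadjusted p under 0.05 for 8 of the 35, 27 of the 81 and 2 of the 63. At an adjusted P-value under 0.05 the classes held 829, 453 and 581 genes, and *WBGene00012618* was the 1 gene in both with opposite signs. Of the 480 genes with an unadjusted interaction p under 0.05, the negative ones had the larger difference before heat in 113 and after heat in 99, and the positive ones in 140 and 128.

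In the basal-only class 25 of 35 genes were higher in untreated *hsf-1(sy441)* than in N2. *hsp-70* had the lowest interaction p of the class. *W02D9.7* was at 34.5, 26.1 and 27.8 CPM in untreated N2, 48, 49.2 and 42 in heat-shocked N2, 48.2, 62.8 and 52.0 in untreated *hsf-1(sy441)* and 54.6, 61.7 and 59.3 in heat-shocked *hsf-1(sy441)*. The untreated mutant was thus at about the heat-shocked N2 level, with a basal difference of 0.88 ± 0.13 (adjusted P-value 0.000758) that was lost without untreated N2 replicate 2 or 3 (up to 0.0152). The pseudogene *WBGene00018648* (IV:4130503-4134631) had the same order at a lower level. It was at 0.0677, 0.331 and 0.0688 CPM in untreated N2, 1.97, 2.78 and 0.806 in heat-shocked N2, 3.56, 5.44 and 4.12 in untreated *hsf-1(sy441)* and 4.47, 7.25 and 4.69 in heat-shocked *hsf-1(sy441)*. Its basal difference of 4.73 ± 0.85 (0.00549) was lost without any untreated N2 library or untreated *hsf-1(sy441)* replicate 2 or 3 (up to 0.0457).

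The chemoreceptor gene *sra-14* differed before heat and not after it, at 1.02, 0.794 and 0.963 CPM in untreated N2 and 2.11, 4.99 and 5.01 in untreated *hsf-1(sy441)*, against 0.909, 0.972 and 1.55 and 1.18, 1.55 and 1.77 after heat, which overlapped. Its basal call (adjusted P-value 0.00865) was lost without 7 of the 12 libraries in turn (up to 0.0522). Among lower genes, *B0546.3* was at 38.5, 32.2 and 30.7 CPM in untreated N2 and 20.0, 19.7 and 24.8 in untreated *hsf-1(sy441)*, a basal difference of -0.65 ± 0.12 (0.00788), lost without 7 of the 12 libraries (up to 0.0445).

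In the induced-only class 55 of 81 genes were higher in heat-shocked *hsf-1(sy441)* and 26 lower. The 5 with the lowest interaction p were *WBGene00012618*, *ttll-12*, *T25D10.1*, *WBGene00045366* and *ZK1010.8*, all lower, while *E02H9.3*, *argn-1* and the zinc transporter gene *ttm-1* were higher. *ttm-1* was at 20.4, 20.5 and 17 CPM in heat-shocked N2 and 27.8, 36.1 and 40.2 in heat-shocked *hsf-1(sy441)*, an induced difference of 0.85 ± 0.17 (adjusted P-value 0.00769), lost without 7 of the 12 libraries (up to 0.0480).

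The 63 genes called in both had a median interaction of 0.01, with 29 estimates negative and 34 positive, and 55 of them were higher in the mutant. *C38D9.2* (V:17567150-17571742) was at 0.275 to 1.02 CPM in untreated and 0.230 to 1.18 CPM in heat-shocked N2, and at 348, 310.1 and 329 in untreated and 437, 435 and 351 in heat-shocked *hsf-1(sy441)*. Its basal and induced differences of 9.23 ± 0.48 and 9.12 ± 0.47 kept their calls without each library in turn, and its interaction estimate was -0.11 ± 0.63. The class also held *fat-1* and *fat-2*, fatty acid desaturases, with basal and induced differences of 0.74 and 0.87 and of 1.15 and 1.35, and the aldolase gene *aldo-1*, with 1.62 and 1.93. *maco-1*, which encodes macoilin, was among the genes lower in the mutant, with -1.21 and -0.90.

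Among the 62 raised heat genes, 2 were called for the basal difference only (*hsp-70* and *C05B5.8*), 8 for the induced difference only (7 lower and 1 higher) and 52 for neither. Of all genes, 0.243% were called for the basal difference only, 0.562% for the induced difference only and 98.8% for neither. *C05B5.8* was at 3.45, 3.24 and 3.03 CPM in untreated N2 and 9.44, 9.26 and 8.05 in untreated *hsf-1(sy441)*, a basal difference of 1.46 ± 0.27 (adjusted P-value 0.00609) that was lost without any untreated N2 library or untreated *hsf-1(sy441)* replicate 2 or 3 (up to 0.0433). By sign alone, 26 of the 62 (41.9%, against 11.3% of all genes) had a higher basal and a lower induced estimate in the mutant, as *hsp-70* and *hsp-16.2* had, and 18 were lower in both. The 8 induced calls were 3 without heat-shocked *hsf-1(sy441)* replicate 2, 4 without heat-shocked N2 replicate 2 and 10 without untreated *hsf-1(sy441)* replicate 3.

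**Figure D5:**
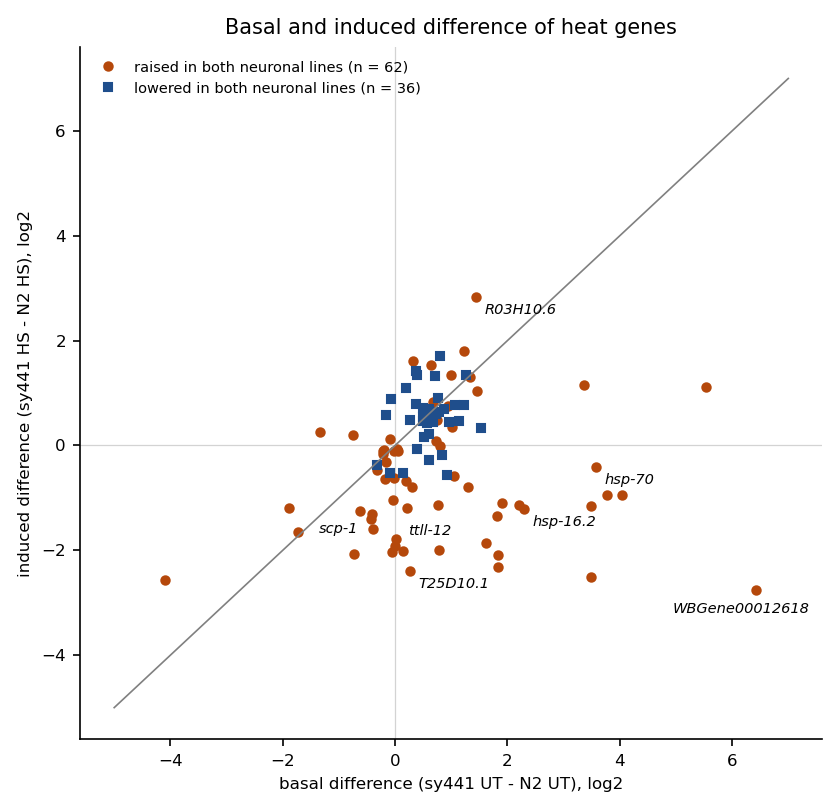
The induced difference against the basal difference (*hsf-1(sy441)* minus N2, log2) for the 62 raised and 36 lowered heat genes, 1 point a gene. Genes on the gray line differ by the same amount before and after heat, and those below it have a negative interaction estimate. Of the raised genes 26 lie to the lower right, higher in the mutant before heat and lower after it.

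The genes of the UPR-ER were compared because the study asked how the HSR and the UPR-ER affect each other under heat. Of 34 listed genes, all tested, none was called for the interaction, the basal or the induced difference by edgeR. An unadjusted p under 0.05 was found for 0, 6 and 9 of them, DESeq2 called 0, 1 and 0, and voom 0, 0 and 2. Their median interaction was 0.06, with median basal and induced differences of 0.07 and 0.08. Heat raised 1 in N2, *F41B4.3* (0.589% of all genes), and 3 in *hsf-1(sy441)*, *F41B4.3*, *xbp-1* and *ckb-2* (1.39%), and lowered *dsc-4*, the homologue of the microsomal triglyceride transfer protein, in *hsf-1(sy441)* (0.589%). These 4 calls in the mutant were 1 without untreated *hsf-1(sy441)* replicate 2 and 2 without untreated replicate 3 or heat-shocked replicate 1 or 2, and the call in N2 was lost without any untreated library of either genotype or replicate 2 of either heat-shocked group. For heat in N2 and in the mutant, DESeq2 called 3 and 5 of the 34 and voom 4 and 7. In edgeR 6 and 11 had an unadjusted p under 0.05. *hsp-4* was not called for heat in edgeR, while the study, with DESeq2 and sva, reports it as significantly raised in N2.

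*xbp-1*, the transcription factor of the response, was at 163, 134 and 139 CPM in untreated and 263, 222 and 194 in heat-shocked N2, and at 170, 139 and 178 in untreated and 269, 325 and 293 in heat-shocked *hsf-1(sy441)*. The untreated groups overlapped and all heat-shocked mutant libraries were above all heat-shocked N2 libraries. Its interaction estimate was 0.23 ± 0.20. *hsp-4* was at 325, 474 and 547 CPM in untreated and 649, 1980.4 and 890.2 in heat-shocked N2, and at 423, 439 and 455 in untreated and 1319, 1523 and 899 in heat-shocked *hsf-1(sy441)*. Both pairs of groups overlapped, and the interaction estimate of 0.12 ± 0.54 was -0.17 without heat-shocked N2 replicate 1 and -0.05 without heat-shocked N2 replicate 3, untreated N2 replicate 3 or heat-shocked *hsf-1(sy441)* replicate 2. *ckb-2*, a choline kinase gene, was at 16.21, 34.5 and 15.3 CPM in heat-shocked N2 and 41.7, 50.6 and 47.8 in heat-shocked *hsf-1(sy441)*, with an interaction estimate of 0.99 ± 0.51.

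In edgeR, other lists held few calls for a difference between the genotypes, and none for the interaction. For the interaction an unadjusted p under 0.05 was found for 0 of 14 genes of the mitochondrial stress response, 0 of 34 of the proteasome, 1 of 21 of the pals and intracellular pathogen group, 0 of 77 of the cytosolic ribosome and 0 of 9 of HSF-1 and its regulators, and neither DESeq2 nor voom called any of these. The proteasome genes had a median interaction of 0.05, beside median basal and induced differences of -0.24 and -0.20. Of 20 actin and thin filament genes, 4 were higher in heat-shocked *hsf-1(sy441)* (0.763% of all genes), and the list had a median basal difference of 0.72 and a median induced difference of 0.83. *act-4* was at 611, 806 and 641 CPM in heat-shocked N2 and 1348, 1510 and 2698 in heat-shocked *hsf-1(sy441)*, an induced difference of 1.43 (adjusted P-value 0.00470), lost without any heat-shocked N2 library or heat-shocked *hsf-1(sy441)* replicate 3 (up to 0.0307).

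Markers of other cells and of stage differed between the groups, some with genotype and some with heat. The 10 intestine markers had median log2(fold-change) values on heat of -0.73 in N2 and -1.07 in *hsf-1(sy441)*, with 0 and 1 calls, an unadjusted p under 0.05 for 5 in each, and median basal and induced differences of 0.38 and 0.42. The 6 vitellogenin genes, which encode yolk proteins, had median heat responses of -0.48 and -0.33 and median differences of 0.08 and 0.26, with no call. The 9 body muscle markers had median basal and induced differences of 0.92 and 1.12 with no call, and their summed level was 3127 to 4199 CPM in untreated N2 and 6069 to 10772 CPM in untreated *hsf-1(sy441)*. For the basal difference 6 of the 9 had an unadjusted p under 0.05, DESeq2 called 4 and voom 2. The 53 sperm genes had medians of 6.70 and 6.24, with 0 basal calls in edgeR, an unadjusted p under 0.05 for 53, and 44 calls in DESeq2 and 1 in voom. The 130 cuticle collagens had medians of 1.63 and 1.28, with 1 basal call. For these 2 differences an unadjusted p under 0.05 was found for 71 and 55 collagens, DESeq2 called 36 and 25, and voom 13 and 6. The 24 oocyte and germline genes had median basal and induced differences of -0.38 and -0.29, with 0 calls in edgeR or DESeq2 and 3 for each in voom. The interaction median of collagens was -0.42. That of the sperm genes was -0.48 as fitted and 0.18 with groups near 0 counts set to the floor, where their basal median was 5.58. The part of these markers in the differences above was not tested, beyond the fit with the mean sperm gene level as a covariate. Of the 10 basal calls of single genes followed through every fit, 3 held there, those of *hsp-70* (adjusted P-value 0.00867), *hsp-43* and *C38D9.2*. Of the 20 induced calls 6 held, those of *ttll-12* (0.00661), *T25D10.1*, *E02H9.3*, *lact-4*, *hsp-43* and *C38D9.2*. Those lost included *hsp-90* (0.0285), *sti-1* (0.0270), *dnj-13* (0.102), *scp-1* (0.0231), *unc-45* (0.0245), *WBGene00012618* (0.0354) and *act-4* (0.101).

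Among the remaining lists, 23 autophagy genes had a median interaction of 0.17 and a negative estimate in 4, with 1 gene raised by heat in the mutant, *sqst-1*. Of 30 tested histone genes, heat raised 1 in N2 and 6 in *hsf-1(sy441)*, against 0.589% and 1.39% of all genes. The numbers called for heat were 5 and 10 in DESeq2 and 7 and 5 in voom, and 1 histone gene had an unadjusted interaction p under 0.05 in edgeR. The gene *his-40* was called higher in the heat-shocked mutant, at 8.81, 10.9 and 9.92 CPM against 1.21, 3.82 and 2.59, a call lost without 8 of the 12 libraries (up to 0.0359). Of 163 innate immunity genes heat raised 2 and lowered 1 in N2, and raised 6 and lowered 3 in the mutant. Of 160 detoxification genes these numbers were 2 and 0 in N2 and 1 and 3 in the mutant. Over all genes heat raised 0.589% and lowered 0.132% in N2, and raised 1.39% and lowered 0.589% in the mutant. *sod-3*, the mitochondrial manganese superoxide dismutase and a target of DAF-16, was higher in the untreated mutant at 4.22, 7.64 and 9.32 CPM against 0.339, 1.26 and 1.65 (adjusted P-value 0.00916), a call lost without 8 of the 12 libraries (up to 0.0383).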

How the data were processed

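RNA of whole animals was sequenced by the authors in 24 libraries, of which 12 form the comparison. The authors trimmed reads with Trim Galore 0.6.7-1, aligned them to WBcel235 with STAR 2.7.10a and counted them with featureCounts of Subread 2.0.3. The deposited values are raw counts for 46934 genes. Strand setting and multi-mapped reads are not given in the sources used here. Of the gene IDs, 46924 are in annotation release 115, and positions are those of the deposited table. No column was left without a sample (0). Replicates were not copies, with a chi-square per degree of freedom of 14.0 to 162. The study calls them biological and does not say how cultures were kept apart, so P-values measure the spread between these samples.

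Genes reaching 10 counts in 3 of the 12 libraries were tested in R 4.3.3 by quasi-likelihood F-tests in edgeR 4.0.16, with TMM scaling and a mean for each of the 8 conditions over all 24 libraries, so that comparisons shared 1 estimate of spread. P-values were adjusted over 14424 genes by Benjamini-Hochberg, with calls under 0.01. The SE of a log2 estimate is its absolute value divided by the root of its F. The floor of 3 counts is 0.174 to 0.222 CPM, covers counting error only, and gives lower bounds for folds against groups at or under it.

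Same-numbered untreated and heat-shocked libraries deviated together from their group means, with correlations of 0.228 to 0.801 in the 6 pairs of N2 and *hsf-1(sy441)*. On this, and the replicate numbers of the labels, they were taken as pairs in the fit with a replicate block within genotype. That fit also paired the neuronal libraries, where the correlations were 0.254 to 0.600 in *hsf-1FL* and -0.0654 to 0.275 in *hsf-1CTD*.

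Named genes were those past the interaction threshold in this or the blocked fit, the 10 with the lowest interaction p in each direction with at least 1 CPM in a group, *hsf-1*, the cytosolic chaperones and ER stress genes, the 5 lowest in p among the heat genes of the neuronal lines in each direction and in the basal-only and induced-only classes, and the 2 lowest of each other list. Other named genes were chosen after their values were seen. The comparison, lists and tests were chosen with earlier results of these data known.

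Alternatives were DESeq2 1.42.0, 3 surrogate variables (sva 3.50.0) in both tools, voom with sample weights (limma 3.58.1), other scalings and filters, replicate blocks, the 12 libraries alone, the mean sperm gene level as a covariate, a threshold of 0.05, a minimum log2(fold-change) of 1, and leaving out each library. Leaving out both libraries of N2 replicate 1 or *hsf-1(sy441)* replicate 3 was chosen after seeing the data. The code was tested on simulated data. Python 3.11.15 with numpy 2.4.6, pandas 2.3.3 and matplotlib 3.10.9 made tables and figures.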

Additional observations from a re-analysis of the deposited data

Results flagged for a closer look

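*WBGene00012618* stood out because its 2 heat responses differed by a test of the difference itself in the fit with the replicate block (adjusted P-value 0.000752). Its interaction estimate was -9.18 without the block and -9.15 with it, and -4.57 when the untreated N2 libraries, all at 0 counts, were set to the floor of 3 counts. Of 29 fits, 7 called it. The same block fitted in edgeR to the 12 libraries alone called 0 genes, with a lowest adjusted P-value of 0.102.

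*nhl-2* and *mml-1* stood out because every heat-shocked library lay below every untreated one in N2 and above every untreated one in *hsf-1(sy441)*. For *mml-1* the margin in N2 was lost in rounding. The share of all genes with this order is not given here, so no conclusion is drawn from it. Their interaction estimates were 0.529 and 0.888. Neither difference passed the test (adjusted P-value 1 for both).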

How the results depend on the processing

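The number of genes called for the interaction, 0, was 23 in DESeq2 with surrogate variables, 5 in DESeq2, 1 in edgeR with surrogate variables, 2 without a filter beyond 1 count, 2 at an adjusted P-value under 0.05, and 1 each with the additive replicate block, with the replicate block within genotype, without both libraries of N2 replicate 1 and against the mean response of N2, *hsf-1FL* and *hsf-1CTD*. It stayed 0 with only the 12 libraries, with or without the replicate block within genotype, and was 0 to 1 when single libraries were left out.

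For the basal difference, 98 genes became 290 in DESeq2 with surrogate variables, 1103 in DESeq2, 587 in voom, 13 with only the 12 libraries, 168 with the additive block, 34 with the sperm covariate, 62 without both libraries of N2 replicate 1, 1411 at 0.05, and 30 to 471 without single libraries. For the induced difference, 144 became 759, 1020, 1196, 15, 220 and 63 in the first 6 of these fits, 375 in edgeR with surrogate variables, 1035 at 0.05, and 56 to 184 without single libraries.

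For heat in N2, 104 genes became 1168 in DESeq2 with surrogate variables, 366 in DESeq2, 653 in edgeR with surrogate variables, 903 in voom, 25 with only the 12 libraries, 40 with 10 counts in all 12 libraries, 328 with the within-genotype replicate block, 211 with the sperm covariate, 171 without both libraries of *hsf-1(sy441)* replicate 3, 304 at 0.05, and 33 to 167 without single libraries. For heat in *hsf-1(sy441)*, 286 became 2174, 751, 1525, 1096 and 24 in the first 5 of these, 953 with the within-genotype block, 434 with the additive block, 490 with the sperm covariate, 879 at 0.05, and 102 to 660 without single libraries.

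The 98 heat genes of the neuronal lines became 878 in DESeq2 with surrogate variables, 350 in DESeq2, 501 in edgeR with surrogate variables, 866 in voom, 63 with 10 counts in all 12 libraries, 159 and 387 with the additive and within-genotype replicate blocks, 202 with the sperm covariate, 169 and 216 without both libraries of N2 replicate 1 or *hsf-1(sy441)* replicate 3, 326 at 0.05, and 77 to 197 without single libraries. The median interaction of the raised ones, -0.884, was -0.232 for the lists chosen at 0.05 and by DESeq2, -0.256 for the list chosen with the block, and -1.12 to -0.632 without single libraries. The classes basal only, induced only and both became 829, 453 and 581 genes at 0.05. The interaction estimate of *hsp-4*, 0.118, was -0.0864 in voom, -0.173, -0.0459, -0.0490 and -0.0508 without single libraries, with a range of -0.173 to 0.727, and that of *F41B4.3* was -0.0234 in voom. Among the 77 results on single genes, 6 of 2074 values changed sign, 25 gained a call and 215 lost one. The causes of these shifts were not tested. The fits of 12 libraries alone and those without a library rest on fewer samples. The biological coefficient of variation also differed, at 40.3% over all 24 libraries of the main fit and 48.9% over the 12 alone. The within-genotype replicate block changed the interaction call of no named gene other than *WBGene00012618*.

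At a floor of 0.174 to 0.222 CPM, the heat response of genes at 0 counts in untreated N2 is known only as a lower bound, and so is its difference from that of *hsf-1(sy441)*.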
